A study of Mus musculus with 6 samples.

Results

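The septin genes were followed in RNA-seq libraries of calvarial cells (the calvaria is the roof of the skull) sorted for EGFP from CX3CR1-EGFP mice. The members are the 10 genes listed as Sept1, Sept2 and Sept4 to Sept11, picked by name from 23284 genes, and all 10 were found. The family was taken up because Sept5 stood among the genes that best separated the 2 treatments, so the comparison of the treatments is given for Sept5 as a description, and no p is read for it. There were 3 libraries with CTLA4-Ig and 3 with control IgG. In both groups lipopolysaccharide (LPS), a component of bacterial membranes that sets off inflammation and local bone loss, was given at the periosteum of the calvaria. The first group received 10 mg/kg CTLA4-Ig with it, a fusion of the outer part of CTLA-4 with an antibody tail that binds CD80 and CD86. The control group received 10 mg/kg whole human IgG with it, and cells were collected after 5 days. The EGFP reporter is driven from the locus of CX3CR1, the fractalkine receptor, and marks monocytes and osteoclast precursors among other cells. No label gives the animals behind each library, so the errors measure the spread between libraries, which may be technical.

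Septins are GTP-binding proteins that join into rods of several subunits, and the rods line up as filaments along membranes, actin bundles and microtubules. A rod takes its subunits from the SEPT2, SEPT6 and SEPT7 subgroups, with SEPT9 of the SEPT3 subgroup in the longer form, and members of one subgroup can stand in for each other. In white blood cells septins stiffen the cell cortex and serve cell shape, crawling and division. Of the genes studied here, Sept1, Sept2, Sept4 and Sept5 belong to the SEPT2 subgroup, Sept6, Sept8, Sept10 and Sept11 to the SEPT6 subgroup, Sept7 is alone in its own, and Sept9 belongs with Sept3 and Sept12.

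The members are related but distinct in sequence, which bears on whether their reads can be told apart. The coding letters below hold the P-loop, the stretch that grips the phosphates of GTP, and are shown because every member holds it, as do many GTP- and ATP-binding proteins outside the family, so that the members can be set beside each other. Capitals mark the 24 letters that encode the P-loop pattern of a glycine, any 4 residues, a glycine, a lysine and a serine or threonine, with 9 letters on each side, read from GENCODE M21 transcripts on GRCm38.
Sept5: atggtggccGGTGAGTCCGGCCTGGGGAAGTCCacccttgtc
Sept1: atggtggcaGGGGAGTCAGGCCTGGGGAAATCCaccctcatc
Sept4: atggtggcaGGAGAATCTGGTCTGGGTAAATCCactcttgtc
Sept2: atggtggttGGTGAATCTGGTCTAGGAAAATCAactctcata
Sept7: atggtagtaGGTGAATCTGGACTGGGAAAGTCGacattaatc
Sept9: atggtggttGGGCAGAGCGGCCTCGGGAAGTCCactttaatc
Sept6: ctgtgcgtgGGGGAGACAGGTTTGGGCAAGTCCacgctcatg
Sept11: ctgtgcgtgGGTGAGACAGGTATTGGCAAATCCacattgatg
Sept8: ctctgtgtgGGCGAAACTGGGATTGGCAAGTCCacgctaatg
Sept10: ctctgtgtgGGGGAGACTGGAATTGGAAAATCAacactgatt
The pattern occurred once in each of the 10 coding sequences. An intron of the gene falls after the first 10 of these 42 letters in all 10 members, which is just inside the first codon of the pattern. In Sept5 the letters come from exons 3 and 4 on the minus strand (chr16:18625224-18625354). Within the capitals Sept1 differed from Sept5 at 3 letters, Sept4 at 6 and Sept2 at 7, while Sept10 differed at 9. Sept1, Sept2, Sept4 and Sept7 encode the same P-loop residues as Sept5, so the letters that differ there are silent. Coding sequences were also aligned in pairs, and the matching letters were counted as a percent of the shorter sequence. This identity was 63.0 to 75.5% in the 12 pairs within a subgroup and 53.3 to 68.0% in the 33 pairs between subgroups. Sept5 was closest to Sept4, at 72.9%. Of stretches of 50 letters, at most 6 of any member were shared with another septin.

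Sept5 is the member whose reads can be shared with a neighbour. In GENCODE M21, 80.5% of its 3953 distinct stretches of 50 letters also occur in Gp1bb or in Gm49601. Gp1bb, the gene of a platelet adhesion receptor chain, lies next to Sept5 on the same strand, and Gm49601 is annotated across both. Sept5 lies on chromosome 16 from 18621811 to 18629938 and Gp1bb from 18620319 to 18622403 (RefSeq, GRCm38.p6). By these coordinates they overlap only from 18621811 to 18622403. How much of Sept5 is shared thus depends on the annotation, and the one behind the deposited values is not known here. Gp1bb itself was listed at 0.748, 0.982 and 1.22 FPKM with CTLA4-Ig and at 0.983, 0.456 and 0.403 FPKM with control IgG, so the groups overlapped. FPKM, fragments per kilobase of transcript per 10 to the power 6 fragments, divides counts by length and depth. In the other members at most 2.25% of the stretches were shared with any other gene. Among these, Sept1 shares 21 with the opposite strand of Zfp553 and Sept6 shares 214 with that of Gm15008. Whether the authors' counting used strand is not given in the sources used here, so values of overlapping genes are uncertain to that extent.

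The 6 libraries were of similar depth. Low values are spaced by what 1 fragment is worth, which gave 9340000 to 11390000 fragments a library with CTLA4-Ig, against 9430000 to 10190000 with control IgG, in the authors' scaling. At typical transcript lengths that is about 1263 to 2051 fragments a library for Sept5, 127 to 187 for Sept10, 49 to 104 for Sept8 and 2 to 13 for Sept4. Counting error alone is then about 2.81% for Sept5 and 66.1% for Sept4 in the library with the fewest fragments. Cx3cr1 ran from 16.6 to 26.5 FPKM with CTLA4-Ig and from 12.3 to 32.5 FPKM with control IgG, and Csf1r, the receptor of the macrophage growth factor M-CSF, from 140.4 to 171 and from 142 to 193 FPKM. The neutrophil genes S100a8 and S100a9 averaged 84034 ± 14128 and 77792 ± 13739.8 FPKM with CTLA4-Ig, against 58841.5 ± 3781 and 51612 ± 4467 FPKM with control IgG (SD, n = 3). Control library 1 stood apart in red cell genes. The summed erythroid markers were 73.4 to 107 FPKM with CTLA4-Ig and 8.15 to 121 FPKM with control IgG, with the lowest value in that library.

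Septin expression in the sorted cells was carried by 5 genes. Sept9, whose protein bundles actin and binds microtubules, was highest, at 143 ± 12.7 FPKM over the 6 libraries (SD). Sept5, at 76.6 ± 14.8 FPKM, and Sept7, the subunit present in every rod, at 75.1 ± 4.91 FPKM, followed side by side. Sept2, a scaffold for myosin II in dividing cells, had 50.9 ± 2.44 FPKM, and Sept1, known from lymphocytes, had 42.0 ± 5.93 FPKM. The SEPT6 subgroup was lower, with Sept11 at 19.3 ± 3.20, Sept6 at 14.7 ± 2.29, Sept10 at 7.30 ± 0.768 and Sept8 at 3.01 ± 0.670 FPKM. Sept4, whose protein is needed in the sperm tail of mice, was near the limit of the data at 0.376 ± 0.202 FPKM. Outside the 10 members, Sept3, a brain septin, stood at 0.456 ± 0.262 FPKM, and Sept12 and Sept14, both known from testis, were listed at 0 in every library.

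**Figure D1:**
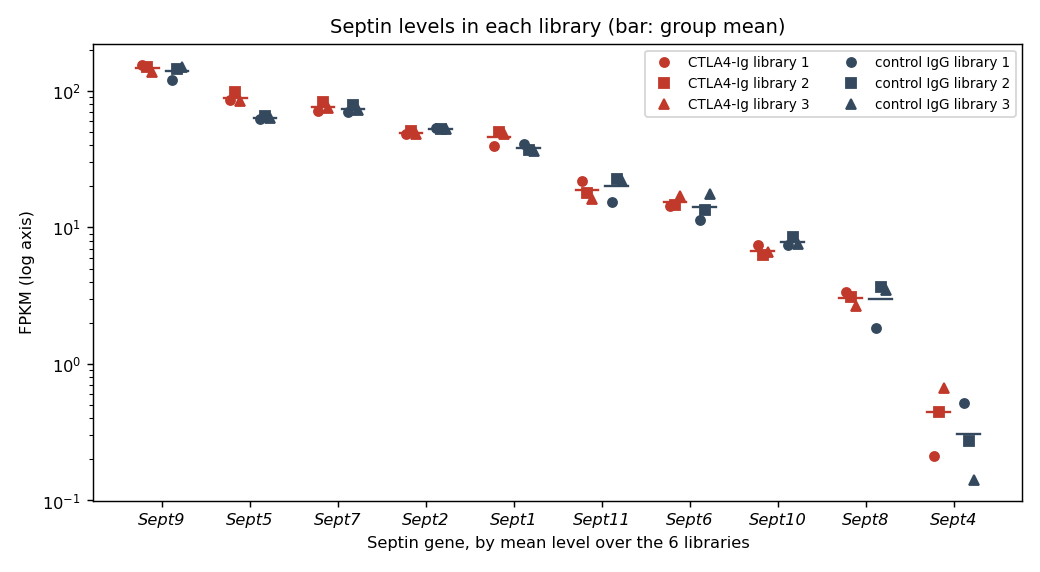
FPKM of each septin gene on a log axis, in the order of the mean over 6 libraries, with CTLA4-Ig libraries on the left of each pair in red and control IgG libraries on the right in blue (symbol: library number; bar: group mean). The CTLA4-Ig libraries of Sept5 sit between 84.0 and 98.3 FPKM, above the control IgG libraries, while most other members overlap.

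The order of levels held in every library for 6 of 9 pairs of neighbours. In those 6 pairs the upper gene was higher in 6 of 6 libraries, by 0.55 to 1.54 on the log2(FPKM + 1) scale (two-sided exact sign-flip permutation p = 0.0312, the smallest 6 libraries can give, and 0.0469 after Benjamini-Hochberg adjustment over 9 pairs). Sept2 was above Sept1 in 5 of 6 libraries (exact p = 0.0938, adjusted 0.105) and Sept11 above Sept6 in 5 of 6 (exact p = 0.0625, adjusted 0.0804). Sept5 and Sept7 did not differ beyond their spread over all 6 libraries (exact p = 0.969, adjusted 0.969). Sept5 was above Sept7 in 3 of 3 CTLA4-Ig libraries and in 0 of 3 control IgG libraries. Since Sept5 was chosen because its groups separate, this crossing follows from the choice. The neighbours were set by the means of the same 6 libraries, with both treatments pooled. The p-values of the pairs therefore tell only how steady each gap was over these libraries.

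Sept5 had 85.5, 98.3 and 84.0 FPKM in CTLA4-Ig libraries 1, 2 and 3 and 62.5, 65.5 and 63.5 FPKM in control IgG libraries 1, 2 and 3. The lowest CTLA4-Ig library was above the highest control library, and the control libraries lay close together. The mean was 89.3 ± 7.87 FPKM (SD, n = 3) with CTLA4-Ig, against 63.8 ± 1.53 FPKM (SD, n = 3) with control IgG, a ratio of 1.40. The fitted log2 fold change, on the scale of log2(FPKM + 1), was 0.47 ± 0.07 (SE), and 0.40 to 0.52 with each library left out in turn. These are the values that put Sept5 forward, which ranked 2nd by unadjusted p among 706 genes whose CTLA4-Ig libraries were all above the control libraries, and the genes at the edge of the 10 first named in that order were Chi3l1, at 0.71 just inside, and Mmp9, at 1.04 just outside. SEPT5 protein is known to bind syntaxins and to hold back vesicle release in neurons and platelets.

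None of the 8 members tested beside Sept5 passed the test across all genes. The 10865 genes whose mean reached 1 FPKM were tested, of which 0 (0.0%) had an adjusted p under 0.05 in limma (Benjamini-Hochberg), and 659 had an unadjusted p under 0.05, or 6.07%. Of the members, 9 reached that mean and Sept4 did not. Those 8 had adjusted p-values in limma from 0.784 to 0.985, and 5 of 8 had a positive log2 fold change against 47.7% of all genes. Their median was 0.05, against -0.01 over all genes tested, and their values ran from -0.19 to 0.27. In 3 of the 9 members the values of one group lay wholly on one side of the other, against 12.2% of all genes. Sept5 was the 1 higher member, where 6.5% of all genes were higher in this way, and Sept2 and Sept10 were the 2 lower ones, where 5.69% were lower. Sept5 brought the family into view on this same comparison, so nothing is read from that count. Without control library 1, 2 of the 8 were positive, and the median was -0.06.

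**Figure D2:**
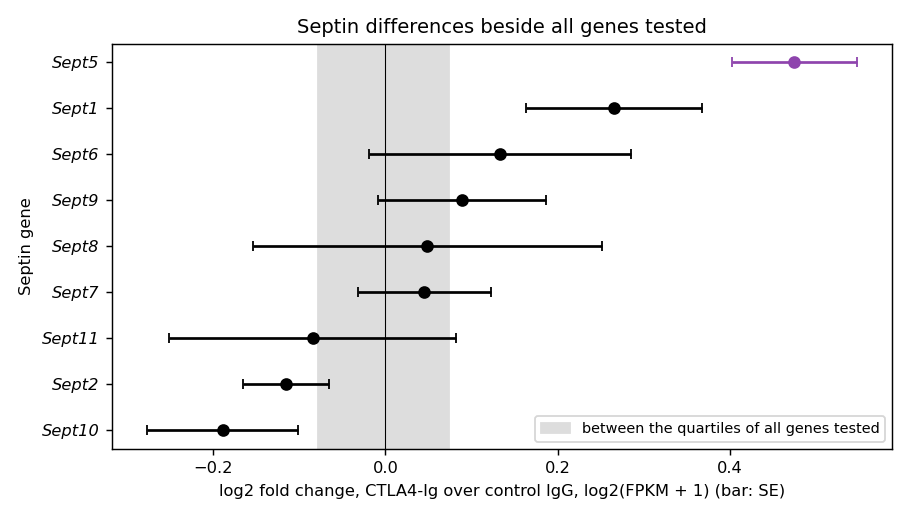
Log2 fold change of each septin whose mean reached 1 FPKM, CTLA4-Ig over control IgG, on the log2(FPKM + 1) scale, with its standard error, for 3 libraries per group. The grey band holds the values between the quartiles of all genes tested, -0.08 to 0.07, and Sept5, at 0.47, lies farthest to the right and Sept10, at -0.19, farthest to the left.

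In the subgroup of Sept5 the log2 fold change was positive for Sept1 and negative for Sept2, and neither passed the test. Sept1 had 39.5, 49.97 and 48.6 FPKM with CTLA4-Ig and 41.0, 36.9 and 36.0 FPKM with control IgG. CTLA4-Ig libraries 2 and 3 were above all controls, but library 1 was below control library 1, so the groups overlapped. Its log2 fold change was 0.27 ± 0.10 (SE; limma adjusted p = 0.784) and stayed between 0.20 and 0.37 under the 12 alternative settings that can move it. Sept2 had 48.1, 50.4 and 48.1 FPKM with CTLA4-Ig and 53.3, 52.8 and 52.9 FPKM with control IgG. All CTLA4-Ig libraries were lower, and the gap was small, with a log2 fold change of -0.12 ± 0.05 (SE; limma adjusted p = 0.821) and negative values under the same 12 settings. Its libraries varied within groups by 2.02% (coefficient of variation), about the counting error of 2.56% in the library with the fewest fragments. Sept4, at 0.210, 0.447 and 0.671 FPKM with CTLA4-Ig and 0.515, 0.271 and 0.141 FPKM with control IgG, rested on a few fragments and overlapped.

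The ratios within a library do not depend on how libraries were scaled to each other. Sept5 stood at 1.78, 1.95 and 1.75 times Sept2 with CTLA4-Ig and at 1.17, 1.24 and 1.20 times with control IgG. The groups lay well apart. It held 49.3, 49.4 and 46.3% of the summed FPKM of the SEPT2 subgroup with CTLA4-Ig, against 39.7, 42.1 and 41.6% with control IgG, while Sept2 held 27.7, 25.3 and 26.5% against 33.9, 34.0 and 34.7%. The share of Sept1 overlapped, at 24.9 ± 2.01% (SD, n = 3) with CTLA4-Ig, against 24.5 ± 1.37% (SD, n = 3) with control IgG. Sept5 relative to Sept7 was 1.20, 1.20 and 1.11 with CTLA4-Ig, against 0.898, 0.824 and 0.872 with control IgG. These ratios contain Sept5 and so describe the same choice. Sept5 relative to Sept1 overlapped, at 2.16, 1.97 and 1.73 with CTLA4-Ig, against 1.53, 1.77 and 1.76 with control IgG. Sept1 relative to Sept2, which does not contain Sept5, was 0.822, 0.991 and 1.01 with CTLA4-Ig, against 0.768, 0.6996 and 0.681 with control IgG, and did not overlap. Sept2 by itself did not overlap, as given above. Sept2 relative to Sept7, also without Sept5, overlapped. It was 0.674, 0.613 and 0.637 with CTLA4-Ig, against 0.767, 0.664 and 0.726 with control IgG. How often ratios of other genes separate in this way was not tested.

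Across subgroups the shares of the 2 groups of libraries overlapped. The SEPT2 subgroup made up 40.8 ± 1.80% of the summed FPKM of all 13 septin genes with CTLA4-Ig and 37.6 ± 2.84% with control IgG, and the SEPT3 subgroup, nearly all Sept9, 32.7 ± 1.88% and 33.7 ± 1.90% (SD, n = 3). Sept7 made up 16.9 ± 0.800% and 17.9 ± 0.765%, and the SEPT6 subgroup 9.69 ± 0.836% and 10.8 ± 1.28% (SD, n = 3). The sum itself was 447, 474 and 436 FPKM with CTLA4-Ig and 385, 429 and 427 FPKM with control IgG. Its lowest CTLA4-Ig library was above its highest control library. Without Sept5 the sum was 362, 375 and 352 FPKM with CTLA4-Ig, against 322, 363.1 and 363.3 FPKM with control IgG, and the groups overlapped.

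**Figure D3:**
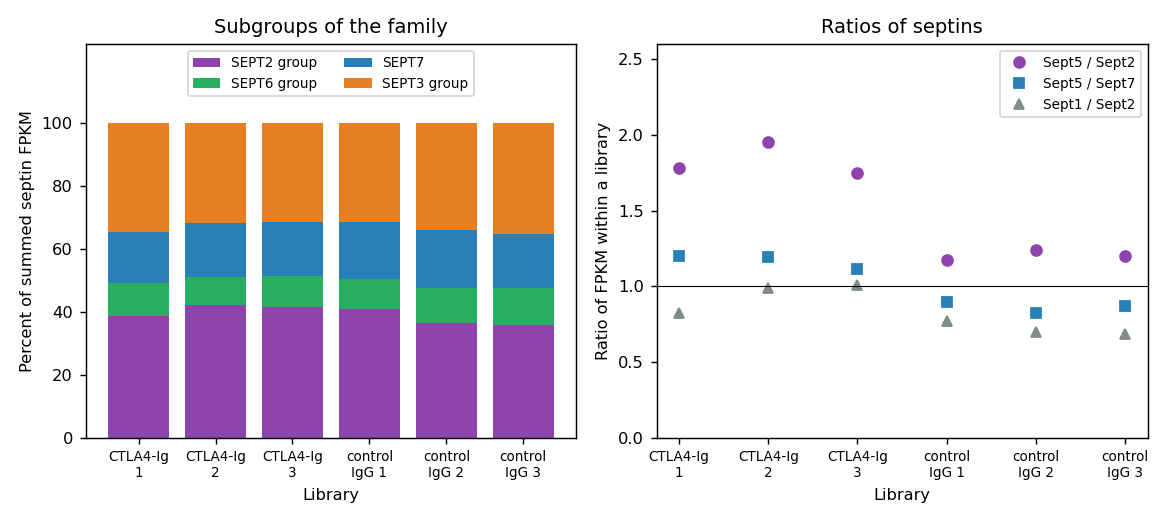
Left, the percent of the summed FPKM of 13 septin genes held by each subgroup in each library. Right, the ratio of FPKM of 2 septins within each library, where Sept5 over Sept2 lies at 1.75 to 1.95 in the CTLA4-Ig libraries and at 1.17 to 1.24 in the control IgG libraries, and Sept5 over Sept7 is above 1 in the first and below 1 in the second.

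Sept7 and Sept9, the common subunits of the long rods, were close between the groups. Sept7 had 71.3, 82.2 and 75.4 FPKM with CTLA4-Ig and 69.6, 79.5 and 72.8 FPKM with control IgG, a log2 fold change of 0.05 ± 0.08 (SE; limma adjusted p = 0.952). Sept9 had 155, 150.0 and 137 FPKM with CTLA4-Ig and 121, 145 and 151 FPKM with control IgG, a log2 fold change of 0.09 ± 0.10 (SE; limma adjusted p = 0.921). In both genes the groups overlapped, and the lowest value was that of control library 1. Without that library the log2 fold change was 0.00 for Sept7 and -0.01 for Sept9.

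The SEPT6 subgroup, whose proteins sit beside SEPT7 in the rod and are held to keep their GTP, was mixed. Sept10 had 7.39, 6.26 and 6.65 FPKM with CTLA4-Ig and 7.48, 8.44 and 7.62 FPKM with control IgG. All CTLA4-Ig libraries were lower, by as little as 7.39 against 7.48 FPKM at the nearest pair, and the log2 fold change was -0.19 ± 0.09 (SE; limma adjusted p = 0.848). Its counting error, 8.87% in the library with the fewest fragments, was about as large as its spread within groups, 7.61%. Sept11 had 21.9, 17.9 and 16.2 FPKM with CTLA4-Ig and 15.4, 22.7 and 21.8 FPKM with control IgG, a log2 fold change of -0.08 ± 0.17 (SE; limma adjusted p = 0.961). Its groups overlapped through CTLA4-Ig library 1, which was high, and control library 1, which was low. Sept6 had 14.4, 14.6 and 16.9 FPKM with CTLA4-Ig and 11.3, 13.4 and 17.5 FPKM with control IgG, a log2 fold change of 0.13 ± 0.15 (SE; limma adjusted p = 0.926). Sept8, whose protein is known to bind the vesicle protein VAMP2 in neurons, had 3.38, 3.08 and 2.65 FPKM with CTLA4-Ig and 1.84, 3.64 and 3.47 FPKM with control IgG, a log2 fold change of 0.05 ± 0.20 (SE; limma adjusted p = 0.985). Control library 1 was the lowest of all 6 in Sept6, Sept8 and Sept11, as it was in Sept5, Sept7 and Sept9. Without it the log2 fold change was 0.00 for Sept6, -0.18 for Sept8 and -0.25 for Sept11.

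Neutrophil markers were high in the same libraries as Sept5. The log2 fold change was positive in all 14 matched markers, at a median of 0.56, and in 10 of 14 every CTLA4-Ig library was above every control library (0 passed in limma, and the lowest adjusted p was 0.720). Of all genes 47.7% were positive and 6.5% were higher in this way. The list was chosen with earlier results of these data known. It holds Chi3l1 and Mmp9, named above from this same comparison, and Cebpe, named below for its likeness to Sept5. These counts are therefore a description only. Without control library 3, 13 of the 14 were positive. Their summed level was 173340 to 239731 FPKM with CTLA4-Ig and 133923 to 152942 FPKM with control IgG, of which S100a8 and S100a9 were the most, and none was at 0. Sept5 and the mean of the 14 were both highest in CTLA4-Ig library 2, while the order of the others differed within the groups. The mean of the 14 on the log2 scale was 10.1, 10.5 and 10.3 in CTLA4-Ig libraries 1, 2 and 3. In control libraries 1, 2 and 3 it was 9.83, 9.82 and 9.50. Sept5 was lowest in CTLA4-Ig library 3, at 84.0 against 85.5 FPKM in library 1. Among the controls it was lowest in library 1, at 62.5 against 63.5 FPKM in library 3. These gaps were no larger than its counting error of about 2.81%, so nothing is read from the order. The part of these markers in the septin values was not tested, and in bulk libraries fewer cells of a type and less RNA per cell cannot be told apart. Platelet markers, given because SEPT5 is abundant in platelets, summed to 24.8 to 31.6 FPKM with CTLA4-Ig and 21.5 to 27.1 FPKM with control IgG. Of 12, Gp6 was at 0 in every library and Ppbp, Treml1 and F2rl2 in some. Of the 4 that could be tested 3 were positive, at a median of 0.245. With 1 library left out at a time, 2 to 4 of the 4 were positive, at medians from 0.1492 to 0.3935. Itgb3 had 11.2 ± 0.465 and 8.02 ± 2.48 FPKM and Itga2b 7.89 ± 0.854 and 8.11 ± 1.78 FPKM (SD, n = 3). Itgb3 was the 1 of the 4 with every CTLA4-Ig library above every control library. Its log2 fold change was 0.48 ± 0.20 (SE, limma adjusted p = 0.816).

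The summed levels of the other cell type lists overlapped between the groups. T cell markers, given because Sept1 is known from lymphocytes, summed to 13.6 to 17.1 FPKM with CTLA4-Ig and 10.3 to 20.1 FPKM with control IgG, with 2 of 6 tested positive, and Lat and Lck were the most abundant. B cell markers summed to 16.6 to 23.2 and 14.4 to 24.9 FPKM, with 1 of 4 tested positive. NK cell markers summed to 18.3 to 32.8 and 26.8 to 38.0 FPKM, with 1 of 5 positive at a median of -0.23. Dendritic cell markers summed to 143 to 189 and 137 to 196 FPKM, with 6 of 7 positive at a median of 0.14. Of erythroid markers 5 of 6 were positive, at a median of 0.43. Without control library 1, 3 of 7 dendritic and 2 of 6 erythroid markers were positive. With 1 library left out at a time, 2 to 5 of 6 T cell markers and 0 to 3 of 4 B cell markers were positive. Of all genes 47.7% were positive. Monocyte and macrophage markers summed to 2933 to 3123 FPKM with CTLA4-Ig and 3087 to 3118 FPKM with control IgG, and 4 of 11 were positive. Genes of cycling cells, in which septins serve the cleavage furrow, summed to 899.8 to 929 and 880.2 to 943 FPKM, and 5 of 10 were positive.

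**Figure D4:**
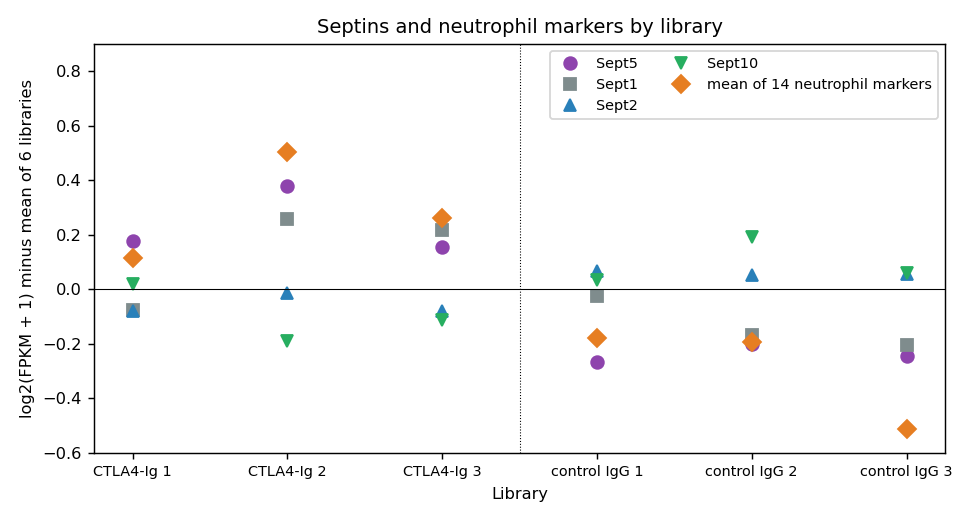
Log2(FPKM + 1) of 4 septins and the mean of 14 neutrophil markers in each library, each minus its own mean over the 6 libraries. Sept5 and the neutrophil markers lie above 0 in the 3 CTLA4-Ig libraries and below 0 in the 3 control IgG libraries, and Sept2 lies below 0 in the first and above 0 in the second.

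The genes whose pattern over the 6 libraries was most like that of Sept5 were Nlrp12, Cebpe, Ly75, Syne1 and Fmo5. Likeness was the root mean square distance of their centred log2 values from those of Sept5, and it was 0.0385 for Nlrp12, a myeloid sensor protein, and 0.0427 for Cebpe, a transcription factor of late neutrophil granules. It was 0.0538 for Ly75, an endocytic receptor, 0.0563 for Syne1, a linker of nucleus and cytoskeleton, and 0.0580 for Fmo5. Cebpe had 189, 228 and 180.3 FPKM with CTLA4-Ig and 132, 143 and 139 FPKM with control IgG. Nlrp12 had 2.38, 3.04 and 2.35 FPKM with CTLA4-Ig and 1.53, 1.69 and 1.42 FPKM with control IgG. Both, like Sept5, were highest in CTLA4-Ig library 2. Of the septins the nearest was Sept1, in place 316 at a distance of 0.156, followed by Sept7 at 0.221 and Sept9 at 0.224, and Sept10 was the farthest at 0.355. Since these genes were picked for their likeness to Sept5, their difference between the groups follows from the choice.

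Genes of known septin partners were measured as 4 lists, and none passed the test. The log2 fold change was positive in 24 of 42 tested genes, against 47.7% of all genes, at a median of 0.02. In limma 2 of the 42 had an unadjusted p under 0.05, against 6.07% of all genes, and the lowest adjusted p was 0.732. In 3 of the 42, all higher with CTLA4-Ig, every CTLA4-Ig library was above every control library, against 6.5% of all genes. These were Cdc42ep3, Myl12a, a light chain of myosin II, and Exoc6, a subunit of the exocyst, which tethers vesicles to the membrane. The last 2 were chosen once their values had been seen.

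Of the binding partners closest to septins 4 of 5 tested genes were positive, at a median of 0.13, against 47.7% and -0.01 over all genes tested. Without control library 1, 3 of 5 were positive at a median of 0.01, and without CTLA4-Ig library 1 the median was 0.05. Among them are the CDC42 effectors of the BORG family, which bind septins and place their filaments. Cdc42ep3 had 48.8, 51.8 and 52.2 FPKM with CTLA4-Ig and 36.4, 48.5 and 48.4 FPKM with control IgG, a log2 fold change of 0.20 ± 0.12 (SE; limma adjusted p = 0.870). Control library 1 was low, as in Cdc42ep2, Cdc42ep4 and Cdc42, and the other controls were just under the CTLA4-Ig libraries. Cdc42ep2 had 3.75, 5.06 and 3.53 FPKM with CTLA4-Ig and 1.88, 2.86 and 3.77 FPKM with control IgG, a log2 fold change of 0.43 ± 0.21 (SE; limma adjusted p = 0.848), and its groups overlapped. Cdc42ep4 had 19.9 ± 2.30 FPKM (SD, n = 3) with CTLA4-Ig, against 18.3 ± 3.46 FPKM (SD, n = 3) with control IgG, while Cdc42ep1 and Cdc42ep5 were at or near 0. Cdc42 itself, the GTPase that controls cell polarity, had 396 ± 15.1 FPKM (SD, n = 3) with CTLA4-Ig, against 381 ± 17.9 FPKM (SD, n = 3) with control IgG. Anln, the gene of anillin, which brings septins to the cleavage furrow, had 28.1 ± 1.502 FPKM with CTLA4-Ig, against 28.1 ± 0.393 FPKM with control IgG (SD, n = 3 each).

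The other partner lists lay near the median of all genes. Of actomyosin genes and their regulators 6 of 10 were positive, with a median log2 fold change of 0.02. Myl12a had 182, 194 and 186 FPKM with CTLA4-Ig and 166, 176 and 170 FPKM with control IgG, a log2 fold change of 0.13 ± 0.06 (SE; limma adjusted p = 0.816). Vim, the intermediate filament gene vimentin, had 874 ± 23.2 FPKM with CTLA4-Ig and 909 ± 89.4 FPKM with control IgG, and Myl12b had 576 ± 30.1 and 526 ± 14.5 FPKM (SD, n = 3). Of exocytosis genes, to which the syntaxins belong, 9 of 17 were positive, with a median of 0.02. Exoc6 had 36.7, 39.9 and 39.9 FPKM with CTLA4-Ig and 34.7, 34.5 and 34.4 FPKM with control IgG, a log2 fold change of 0.16 ± 0.06 (SE; limma adjusted p = 0.732). Vamp8, a vesicle fusion protein of blood cells, had 216 ± 14.4 and 201 ± 6.56 FPKM, and Stxbp2, a syntaxin binder, 87.0 ± 3.33 and 83.3 ± 9.56 FPKM (SD, n = 3). Of microtubule genes 5 of 10 were positive, with a median of 0.00, and the tubulin genes Tubb5 and Tuba4a had 393 ± 18.3 and 333 ± 12.7 FPKM with CTLA4-Ig, against 402 ± 24.2 and 313 ± 26.2 FPKM with control IgG (SD, n = 3).

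**Figure D5:**
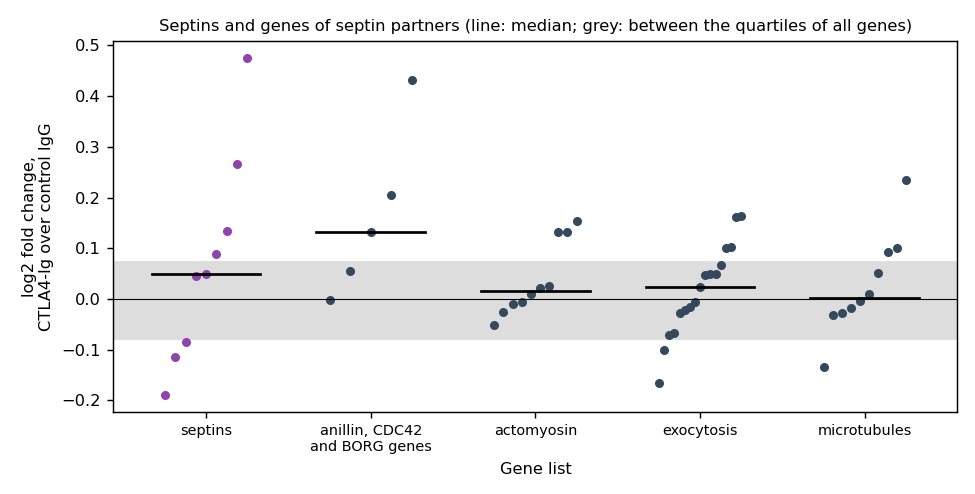
Log2 fold change, CTLA4-Ig over control IgG, of each septin and each gene of 4 partner lists whose mean reached 1 FPKM (point: gene; line: median of the list). The grey band lies between the quartiles of all genes tested, and the median of every list but that of anillin, CDC42 and the BORG genes, at 0.13, lies inside it. Without control library 1 that median was 0.01, also inside.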

How the data were processed

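The deposited values are FPKM that the authors scaled across libraries, with 1 value for a gene name in each library. The mRNA kit was stranded, per the labels' protocols. Cuffnorm 2.2.1, TopHat2 2.0.13, SAMtools 0.1.19, Bowtie2 2.2.3 and mm10 are named in the submitters' processing notes; settings and annotation: not given in the sources used here. log2(FPKM + 1), a scale that understates changes of low genes, was tested with limma 3.58.1 in R 4.3.3 (1 factor, trend) where the mean over all 6 libraries reached 1 FPKM, with Benjamini-Hochberg adjustment and a threshold of 0.05. On simulated data of 10865 genes, 200 of them changed, it recovered 37% of genes changed by 0.5 and 89% of those changed by 1 (log2). These were independent normal values with the spreads fitted by limma, without deviations shared across a library. The rates therefore need not hold for the real libraries. Depth was read per library from low values of genes with 1 transcript, less 200 bases of length. Members and lists were chosen with earlier results of these data known. Of 149 listed genes 146 were matched, 3 through an older symbol in RefSeq; Ly6g, Trac and Hbb-bt were not analysed here, and 1 marker is not reported here. Named were the septins, the anillin and CDC42 list, Gp1bb, the 2 most abundant genes of each other list, the 5 genes most like Sept5, and Cx3cr1 and Csf1r to check the sort. As alternatives, a replicate block, array weights, quantile normalization, median-of-ratios scaling, a fit without trend, a robust prior, pseudocounts of 0.1 or 0.5, a minimum mean of 5 FPKM or none, removal of small RNA genes, and removal of each library in turn were run. Python 3.11.15, scipy 1.17.1 and matplotlib 3.10.9 gave permutation tests and figures.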

Additional observations from a re-analysis of the deposited data

How the results depend on the processing

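Of the 17 alternatives 12 can move a fold change, and the other 5 alter only the test. Sept1, Sept2, Sept10 and Sept5, which was chosen on these values, kept their direction under the 12. Their log2 fold changes were 0.40 to 0.52 for Sept5, 0.20 to 0.37 for Sept1, -0.14 to -0.10 for Sept2 and -0.25 to -0.14 for Sept10. No septin beside Sept5 passed in any of the 17, and no test is read for Sept5. With array weights 3 septins beside Sept5 were positive in place of 5, with -0.0026 for Sept7 and -0.0978 for Sept8; the cause was not tested. With 1 library left out at a time, 0 to 6 genes were called over all genes, 2 to 6 of the 8 septins were positive, and their median ran from -0.0596 to 0.104, its lowest value without control library 1. In the same fits the log2 fold change ran from -0.0037 to 0.292 for Sept6, -0.0093 to 0.0974 for Sept7, -0.178 to 0.175 for Sept8, -0.0083 to 0.151 for Sept9 and -0.252 to 0.0132 for Sept11. Of the septin partners 22 to 29 were positive over all alternatives. The neighbours in the order of levels that held in every library were 6 to 8 of 9, and the order of the means changed in the 3 fits without 1 CTLA4-Ig library. Without the filter the fold change of Sept4 was 0.14 on the log2 scale (limma adjusted p = 0.949). Deviations from the group means of same-numbered libraries correlated at -0.154, -0.094 and -0.023, which gave no sign of pairing by replicate number. In groups of 3 such deviations are tied to each other, so they cannot show whether the libraries were paired. With a replicate block 0 genes were called. In this balanced design the block leaves every fold change as it is, with 5 septins and 24 partners positive. Below about 50 fragments a library, as in Sept4, the depth limits what can be seen.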
